A study of Mus musculus with 20 samples.

Results

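The promoters described here are those of the cytosolic ribosomal protein genes, chosen by name: protein-coding genes of the GENCODE vM21 basic annotation (mm10) whose symbol is Rpl or Rps followed by a digit, together with Rpsa, Rplp0, Rplp1 and Rplp2, without the Rps6k kinases and symbols with -ps. The rule found 86 of 21951 protein-coding genes, 52 with the prefix of the large subunit (Rpl) and 34 with that of the small subunit (Rps). Of the 86, 8 are paralogues (Rpl10l, Rpl22l1, Rpl36al, Rpl39l, Rpl3l, Rpl7l1, Rps27l and Rps27rt), and Rps19bp1 matches the rule although it encodes a protein that binds RPS19 and is no ribosomal protein. The ribosome components Fau and Rack1, for example, are not matched by the rule. The genes lie on 19 chromosomes, 4 of them on X, and have 1 to 5 annotated transcription start sites (TSSs), with a median of 2. A gene was counted as bound where a called peak lay within 1 kb of any of its TSSs.

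Chromatin immunoprecipitation with sequencing (ChIP-seq) located CTCF, MAZ and the cohesin subunit RAD21 in E14 mouse embryonic stem cells grown with LIF and 2i inhibitors. In every group both the treated and the untreated cells carried a degron on CTCF, through which added auxin triggers its breakdown. Cells were untreated (WT), given auxin for 2 days (ΔCTCF), or lacked Maz, as 1 knockout clone per the titles, without auxin (ΔMAZ) or with it (ΔCTCF/ΔMAZ). The series has 20 samples, and the 12 with a peak list, 1 for each antibody and condition, were used, while the other 8 were not analysed here. With 1 list in each group no comparison below has a replicate check and none was tested. The main shares are given with a 95% Wilson interval, which covers counting error only, and beside the matching share among all protein-coding genes. Shares of a few genes have wide intervals, also where none is printed.

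Ribosomal proteins and ribosomal RNA form the large and the small subunit of the ribosome, and their genes are transcribed together at high rates in dividing cells. Their messenger RNAs start at a cytosine followed by pyrimidines, the TOP sequence, through which nutrient signals control their translation. CTCF is a zinc finger protein that halts the cohesin ring as it extrudes chromatin loops, and MAZ is a zinc finger protein of G-rich promoters. Expression was not measured in these files, so the description of the promoters as very active could not be checked here.

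The libraries differed in ways that touch the counts below. Peaks of CTCF numbered 26394 for WT and 26053 for ΔMAZ, and after auxin 2381 for ΔCTCF and 2570 for ΔCTCF/ΔMAZ. Those of MAZ numbered 6265 for WT, 6759 for ΔCTCF and 33 for either knockout condition. The numbers for RAD21 were 20371 (WT), 20872 (ΔMAZ), 17912 (ΔCTCF) and 6400 (ΔCTCF/ΔMAZ). Relative depth was read from the lowest background of each list divided by the width of its narrowest peak. Set to 1 for the shallowest RAD21 library (ΔCTCF/ΔMAZ), it was 1.07 in WT, 1.39 in ΔMAZ and 2.34 in ΔCTCF. It ranged up to 1.81 among the CTCF libraries, and the MAZ library of WT was 2.65 times as deep as that of ΔCTCF. Fold enrichment, the summit pileup over the local background, is not on a common scale between libraries, so the percentile of a peak within its own list is given with it.

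Promoter sequences were taken from RefSeq (GRCm38.p6, the build called mm10), where 66 of the 86 genes had an entry. Among those with none were Rpl17, Rpl21, Rpl23a, Rpl29, Rpl3, Rpl30, Rpl32, Rpl36, Rpl7, Rpl8, Rplp1, Rps14, Rps20, Rps27a and Rps29. Since 76.7% of the genes is under the 80% needed for a share over the set, a count of strings over the set would be void and is not given. Each sequence below runs 5′ to 3′ from 250 bases before the RefSeq start (position 0) to position 19, and distances in this section count from that start. The strings searched were GGGAGGG for MAZ, GGGCGG (SP box), CCGGAAG (ETS), AAGATGGC (YY1), and the CTCF core by its name, all on both strands. Short forms of the CTCF core were searched too, first AGGGGGC, next AGGTGGC, then AGAGGGC, and last AGATGGC, which lies within the YY1 string. On the sense strand CTTTC or alternatively CTTTT was searched within 20 bases of the start. Capitals mark every match. Among all 32851 promoters of the table, 20.7% held the MAZ string, 34.1% the SP box, 8.08% the ETS string, 1.92% the YY1 string, 25.2% a short CTCF form, 0.539% the CTCF core and 9.42% the pyrimidine string. A match is a description and not a binding site.

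The first pair is shown because Rps16 and Rps10, proteins of the small subunit head, had the strongest MAZ peaks in WT among genes with an entry whose summit lay in the window.
Rps16 (chr7:28350439-28350708, plus strand): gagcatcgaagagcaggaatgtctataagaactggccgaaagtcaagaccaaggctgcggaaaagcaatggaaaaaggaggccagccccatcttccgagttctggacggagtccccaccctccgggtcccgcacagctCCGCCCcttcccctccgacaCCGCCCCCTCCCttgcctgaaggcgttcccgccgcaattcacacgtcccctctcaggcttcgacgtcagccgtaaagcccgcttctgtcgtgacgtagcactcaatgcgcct
Rps10 (chr17:27635225-27635494, minus strand): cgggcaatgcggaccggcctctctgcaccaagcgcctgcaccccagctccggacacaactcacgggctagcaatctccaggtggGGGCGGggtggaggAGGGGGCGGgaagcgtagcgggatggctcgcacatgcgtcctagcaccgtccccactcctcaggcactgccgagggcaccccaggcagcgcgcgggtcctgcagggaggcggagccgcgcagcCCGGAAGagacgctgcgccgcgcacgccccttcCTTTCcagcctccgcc
The MAZ summit of Rps16 in WT lay at -84, inside the MAZ string from -87 to -81, which overlaps an SP box and a short CTCF form. That of Rps10 lay at -134, downstream of an SP box that spans -149 to -144, and the printed Rps10 sequence held no MAZ string. The entries of Rpl22 and Rps23 are not shown because their MAZ summits, at 144 and -279, fell outside the window.

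The second pair is shown because Rpl26 and Rpl15 had the highest RAD21 enrichment in ΔCTCF among genes with an entry.
Rpl26 (chr11:68901316-68901585, plus strand): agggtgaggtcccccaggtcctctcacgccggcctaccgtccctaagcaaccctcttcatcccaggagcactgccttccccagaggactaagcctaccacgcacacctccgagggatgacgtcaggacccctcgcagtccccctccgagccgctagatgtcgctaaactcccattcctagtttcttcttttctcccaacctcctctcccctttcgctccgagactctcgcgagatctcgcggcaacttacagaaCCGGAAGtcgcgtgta
Rpl15 (chr14:18270967-18271236, minus strand): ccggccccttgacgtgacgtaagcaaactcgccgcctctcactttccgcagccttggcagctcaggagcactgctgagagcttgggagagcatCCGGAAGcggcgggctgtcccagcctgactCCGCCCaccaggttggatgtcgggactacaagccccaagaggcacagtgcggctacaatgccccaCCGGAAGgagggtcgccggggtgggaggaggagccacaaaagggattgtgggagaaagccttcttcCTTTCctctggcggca
The RAD21 summit of ΔCTCF lay at -112 from this start of Rpl26, in a stretch without any of the strings, and at -138 from that of Rpl15, between an ETS string and an SP box.

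The next 3 had strong CTCF peaks in WT and were chosen after their values were seen.
Rps3a1 (chr3:86142649-86142918, minus strand): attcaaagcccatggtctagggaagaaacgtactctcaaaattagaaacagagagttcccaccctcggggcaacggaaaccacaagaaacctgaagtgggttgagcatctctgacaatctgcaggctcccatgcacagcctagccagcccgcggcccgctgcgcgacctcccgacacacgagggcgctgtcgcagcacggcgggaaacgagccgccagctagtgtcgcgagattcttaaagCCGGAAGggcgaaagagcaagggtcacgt
Rpl5 (chr5:107900278-107900547, plus strand): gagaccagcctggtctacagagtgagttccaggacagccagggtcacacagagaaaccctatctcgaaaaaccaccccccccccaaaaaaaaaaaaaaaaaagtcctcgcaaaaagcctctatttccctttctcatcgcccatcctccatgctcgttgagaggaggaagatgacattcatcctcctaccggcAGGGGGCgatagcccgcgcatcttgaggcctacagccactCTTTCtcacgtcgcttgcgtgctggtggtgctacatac
Rplp0 (chr5:115559217-115559486, plus strand): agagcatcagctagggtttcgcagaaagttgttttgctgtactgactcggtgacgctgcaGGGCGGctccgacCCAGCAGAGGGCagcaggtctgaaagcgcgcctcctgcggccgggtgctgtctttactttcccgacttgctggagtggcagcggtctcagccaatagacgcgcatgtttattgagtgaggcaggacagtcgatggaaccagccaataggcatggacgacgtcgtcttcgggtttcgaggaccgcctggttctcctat
The CTCF summit of Rplp0 at -170 lay inside a match to the CTCF core from -177 to -166. That of Rpl5 at -57 lay inside the short form from -58 to -52. The Rps3a1 sequence held neither, although its CTCF peak was the third strongest of the genes studied.

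The last 3 are the first genes in symbol order, paralogues left out, with no peak of any antibody in any list.
Rpl10 (chrX:74270566-74270835, plus strand): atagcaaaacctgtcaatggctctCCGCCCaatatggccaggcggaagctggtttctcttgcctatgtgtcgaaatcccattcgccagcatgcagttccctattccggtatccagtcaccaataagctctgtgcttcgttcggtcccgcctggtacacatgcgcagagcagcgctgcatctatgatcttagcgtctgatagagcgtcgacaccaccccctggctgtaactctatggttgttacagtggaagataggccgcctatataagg
Rpl13 (chr8:123102100-123102369, plus strand): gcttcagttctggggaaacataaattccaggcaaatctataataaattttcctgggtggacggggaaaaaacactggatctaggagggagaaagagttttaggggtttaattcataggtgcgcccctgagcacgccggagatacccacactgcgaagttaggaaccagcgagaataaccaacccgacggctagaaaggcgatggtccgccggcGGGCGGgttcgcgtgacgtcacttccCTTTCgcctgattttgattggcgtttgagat
Rpl14 (chr9:120571267-120571536, plus strand): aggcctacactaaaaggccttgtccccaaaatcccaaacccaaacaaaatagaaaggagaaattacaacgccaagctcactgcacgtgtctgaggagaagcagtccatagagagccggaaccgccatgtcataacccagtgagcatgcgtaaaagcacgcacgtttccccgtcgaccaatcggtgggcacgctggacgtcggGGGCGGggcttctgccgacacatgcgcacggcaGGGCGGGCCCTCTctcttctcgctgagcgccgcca
All of these held an SP box, and Rpl14 a short CTCF form from -9 to -3, so such strings also occur where no peak was called.

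In WT, CTCF was called at 22 of the 86 genes (25.6%, interval 17.5 to 35.7%), against 9.67% of all protein-coding genes. With the 4 CTCF lists cut to equal length by fold it was called at 6 (6.98%), against 1.94%. As deposited, it was called at 14 of 52 large subunit genes and 8 of 34 small subunit genes. The median percentile of their strongest peaks was 67.1, close to the 64.7 of all genes with a CTCF peak, and 8 of the 22 (36.4%) stood in the upper 20% of the list, near the 34.6% of all genes with CTCF. The strongest was at Rpl36 (chr17:56613161-56613504), with a fold enrichment of 52.9 at percentile 99.8 and a summit at -69 bp from the TSS (negative is upstream). Rpl26, whose protein also binds the messenger RNA of p53, followed with 48.6 (chr11:68901311-68901627, percentile 99.7), and Rps3a1 with 42.6 (percentile 99.1). These 3 stood above percentile 99 of the whole library. Rps29 had 31.6 and Rpl5, whose protein binds Mdm2 together with that of Rpl11, had 30.6. Rplp0, the base of the ribosomal stalk, had 23.6, Rpl11 had 21.8 and Rps20 had 18.6. Rpl38, known for its role in the translation of Hox messenger RNAs, had a peak of 17.8 and a weaker peak of 13.3 further upstream. Rpl27 had 17.5. Lower folds included 15.9 at Rps4x and, as the lowest of the 22, 6.47 at Rpl35.

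**Figure D1:**
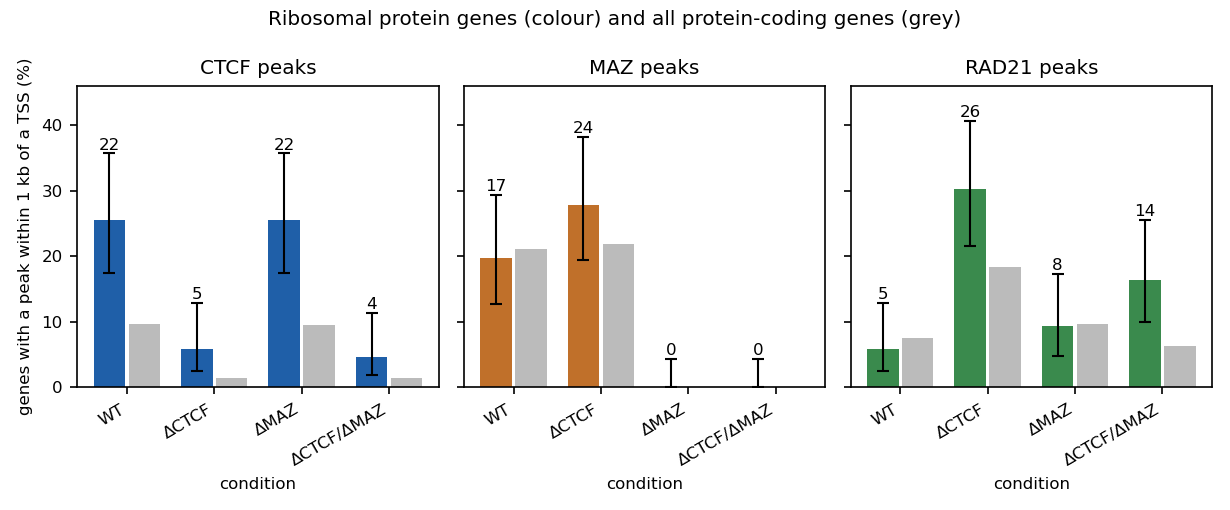
Share of genes with a called peak within 1 kb of a TSS (y axis, percent) in each condition (x axis) for CTCF, MAZ and RAD21. Coloured bars are the 86 ribosomal protein genes with their 95% Wilson intervals and the number bound above, and grey bars are all 21951 protein-coding genes; CTCF fell from 22 to 5 genes and RAD21 rose from 5 to 26 genes between WT and ΔCTCF.

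After auxin, CTCF was called at 5 genes (5.81%, interval 2.51 to 12.9%), against 1.33% of all genes. All 5, Rpl26, Rpl36, Rpl38 and Rps3a1 among them, had a peak in WT, so 22.7% of the bound genes kept one (interval 10.1 to 43.4%), against 13.4% of all genes bound in WT. With both lists cut to equal length 4 of 6 kept one, 66.7% against 43.3%, and among peaks with a −log10 q of 10 or more 2 of 20 did, 10% against 8.31%. Fold enrichment was 14.8 at Rpl26 (percentile 91.6 within the shorter list), 9.48 at Rpl36, 7.68 at Rps3a1 and 6.35 at Rpl38. The genes with the 3 highest folds in WT were all among them, while Rps29 and Rpl5 had no peak. Without MAZ, auxin left CTCF at 4 genes (4.65%, against 1.43% of all genes): Rpl36 with 14.1, Rpl26 with 11.3, Rplp0 with 7.52 and Rpl5 with 6.91. These 4 are 18.2% of the 22 bound in ΔMAZ, against 15.0% of all genes, and with equal lengths the share was 3 of 6, 50.0% against 48.3%. Of the 5 genes with residual CTCF in ΔCTCF, 2 (Rpl26 and Rpl36) also had it in ΔCTCF/ΔMAZ, against 72.0% of all genes with residual CTCF. The library of ΔCTCF was the shallowest of the CTCF libraries and that of ΔCTCF/ΔMAZ the deepest. With pileups scaled to the shallower depth the counts were still 5 and 4 genes, with 2 of 5 shared.

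The number of genes with CTCF was the same with and without MAZ in untreated cells. CTCF was called at 22 genes in ΔMAZ (25.6%, against 9.45% of all genes), and 20 of the 22 genes of WT kept their peak, 90.9% (interval 72.2 to 97.5%) against 87.7% of all genes. Rpl35, whose WT peak had the lowest fold of the 22, was among the 2 that had none in ΔMAZ. Rpl13a with 7.75 and Rps19 with 4.94 had a peak in ΔMAZ alone. The order of the strongest peaks was near that of WT, with Rpl26 at 57.5, Rpl36 at 54.4, Rps3a1 at 44.6 and Rpl5 at 38.8. Rps29 was lower in its list, at percentile 66.9 in ΔMAZ and 94.4 in WT, while Rps15 went from 46.2 to 74.4.

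CTCF summits lay upstream of the start. The median summit position in WT was -109.5 bp from the nearest TSS, with quartiles at -226.5 and -69.2, and 21 of 22 summits (95.5%) were upstream, against 74.0% of all genes with CTCF. The other summit, at Rpl10a, fell on the TSS itself. In ΔMAZ all 22 were upstream, against 74.7% of all genes.

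**Figure D2:**
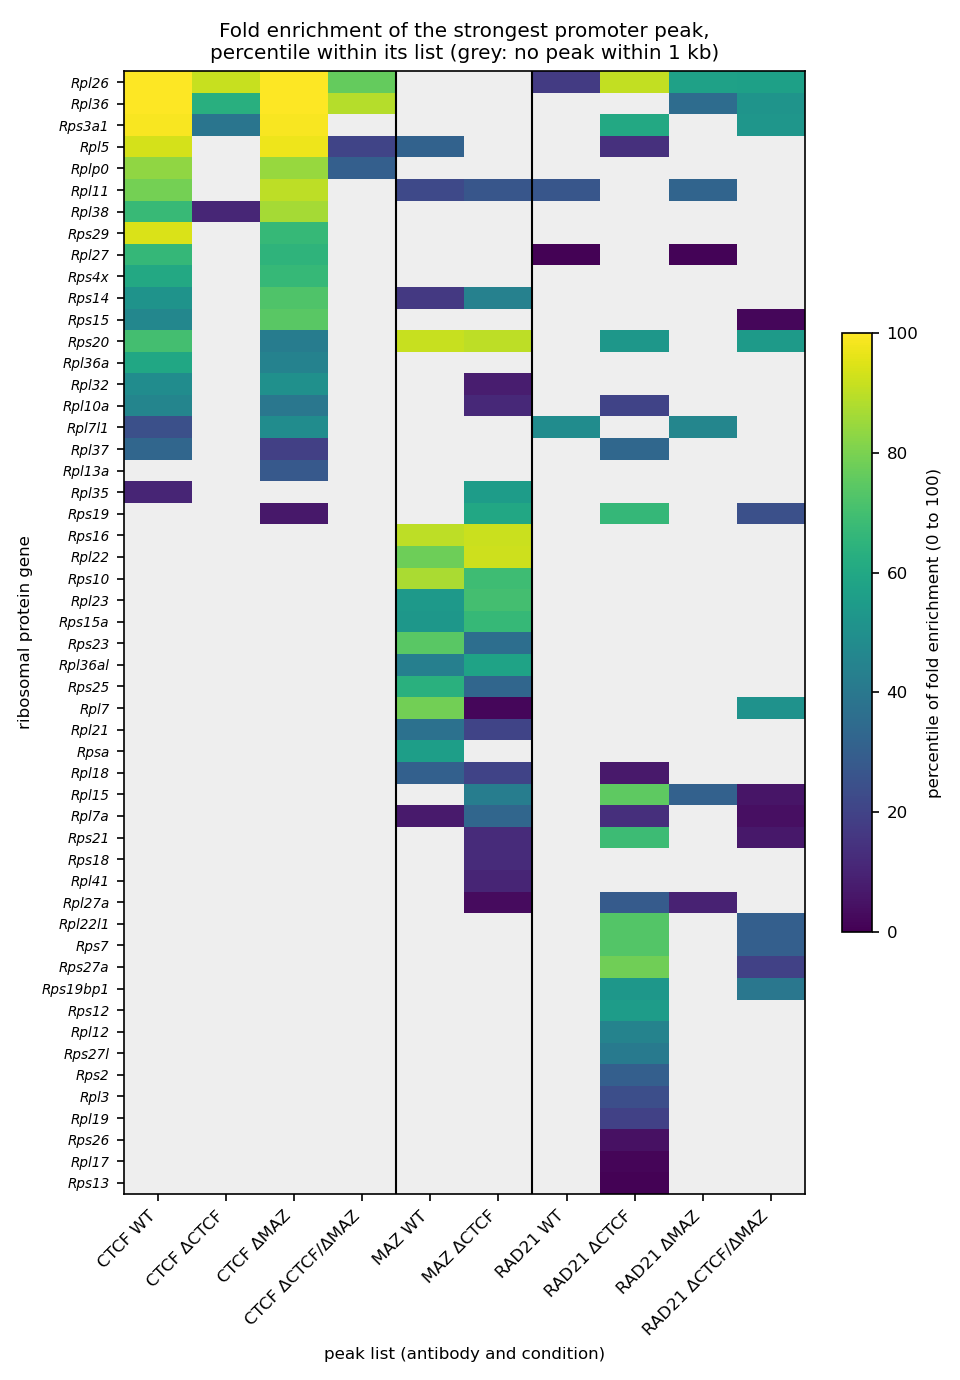
Percentile of fold enrichment within each list (colour, 0 to 100) for the strongest peak of 52 of the 56 genes with a peak in at least 1 list (rows); columns are the lists with any bound gene and grey means no peak within 1 kb. Genes with CTCF stand at the top, and the bottom 13 rows have RAD21 peaks alone, each with 1 in ΔCTCF.

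MAZ was called at 17 genes in WT (19.8%, interval 12.7 to 29.4%), against 21.1% of all genes, a share near the background. The strongest were at Rps20 (chr4:3835398-3835855, fold 8.59, percentile 91.5), Rps16 (8.29, percentile 90.2) and Rps10 (7.77, percentile 87.4). Rpl7 had 6.75, Rpl22 6.67, Rps23, a protein of the decoding centre, 6.34, Rps25 5.72, Rpsa 5.32, Rpl23 5.18 and Rps15a 5.17. The 7 others ranged from 3.55 at Rpl7a to 4.83 at the paralogue Rpl36al. Several of these peaks lie at promoters shared with another gene: Rps25 with Trappc4, Rpl7a with Med22, Rpl18 with Sphk2, Rpl36al with Mgat2, Rps14 with Ndst1 and Rps10 with the readthrough gene RPS10-NUDT3.

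In ΔCTCF, MAZ was called at 24 genes (27.9%, interval 19.5 to 38.2%), against 21.9% of all genes. Of the 17 genes of WT 15 kept MAZ, 88.2% (interval 65.7 to 96.7%) against 74.9% of all genes, and Rpl5 and Rpsa had none. At a −log10 q limit of 5 MAZ was gained at 5 genes (5.81%, against 4.74% of all genes). As deposited it was gained at 9 (10.5%, against 6.08%): Rps19 with 6.42, Rpl35 with 6.19, Rpl15 with 5.70, Rps18, Rps21, Rpl10a, Rpl41, Rpl32 and Rpl27a. All but Rps19, Rpl35 and Rpl15 had folds of at most 4.63 and stood at or below percentile 12.3 of the list. The strongest peaks were at Rpl22 (10.4), the fifth strongest in WT, and at Rps16 (10.2) and Rps20 (9.67), followed by Rpl23 (7.01), Rps10 (6.97) and Rps15a (6.86). The MAZ peak of Rpl7, by contrast, was at percentile 78.8 in WT and at 1.9 in ΔCTCF. In both lists of Maz knockout cells MAZ was called at 0 of 86 genes, and at 7 of all protein-coding genes (0.0319%) in ΔMAZ and 7 (0.0319%) in ΔCTCF/ΔMAZ.

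In WT both CTCF and MAZ were called at 4 genes (Rpl11, Rpl5, Rps14 and Rps20), 4.65% against 2.94% of all genes. At Rps14 the CTCF and MAZ peaks lay at different start sites of the gene, so they do not share a promoter there. A MAZ peak overlapped a CTCF peak by at least 1 bp at Rpl5 and Rps20 only, 2 of 17 (11.8%) against 8.07% of all genes with MAZ. The same 2 are 9.09% of the 22 genes with CTCF, against 17.5% of all genes with CTCF. At Rpl5 the CTCF summit lay at -31 bp and the MAZ summit at 292 bp from the nearest TSS.

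RAD21 was called at 5 genes in WT (5.81%, interval 2.51 to 12.9%), against 7.54% of all genes. The order turned at a distance of 2500 bp, with 12 genes (14%) against 11.7%, and with lists of equal length RAD21 was at 1 gene (1.16%), against 1.93%. Among the 5 the paralogue Rpl7l1 had a fold of 9.70 (percentile 48.6), Rpl11 6.87, Rpl26 5.90 and Rpl27 3.61. They are all large subunit genes or their paralogues, and RAD21 was called at 0 of 34 small subunit genes (interval 0.0 to 10.2%). Each of the 5 RAD21 peaks overlapped a CTCF peak (interval 56.6 to 100.0%, against 78.2% of all genes with RAD21). A MAZ peak was overlapped by 0 of 5 (interval 0.0 to 43.4%, against 20.1%).

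Read from the side of CTCF, most bound promoters had no RAD21 call. A RAD21 peak overlapped the CTCF peak at 5 of 22 genes in WT, 22.7% (interval 10.1 to 43.4%), against 60.8% of all genes with promoter CTCF, and among peaks with a −log10 q of 10 or more at 3 of 20, 15% against 51.1%. Rpl36 had the strongest CTCF peak of the set and no RAD21 peak in WT, and Rps3a1, Rps29, Rpl5 and Rplp0 likewise had none, whereas Rpl7l1 with a CTCF fold of 8.24 had one. In the upper 20% of the CTCF list by fold, 2 of 8 of these genes had an overlapping RAD21 peak, against 77.1% of all genes whose CTCF peak stood there. In ΔMAZ the count was 6 of 22 (27.3%, against 67.0% of all genes), with Rpl36 added, and in the upper 20% of that list 4 of 9 against 87.6%. With lists of equal length it was 1 of 6 in ΔMAZ (16.7%, against 46.5%) and 1 of 5 in ΔCTCF (20%, against 65.5%). The few residual CTCF peaks overlapped RAD21 at 2 of 5 genes in ΔCTCF (Rpl26 and Rps3a1, against 79.5% of all genes) and at 2 of 4 in ΔCTCF/ΔMAZ (Rpl26 and Rpl36, against 70.3%).

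**Figure D3:**
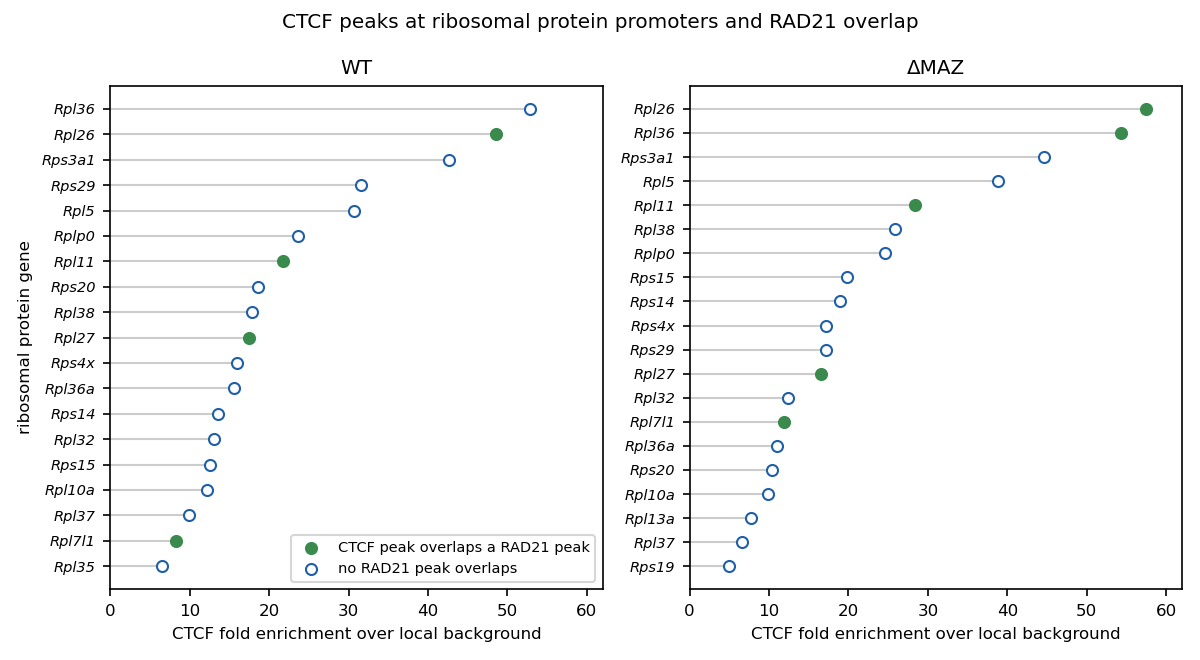
Fold enrichment of the strongest CTCF peak (x axis) for 19 of the 22 genes with CTCF in WT (left) and 20 of the 22 in ΔMAZ (right), by gene (y axis). Filled green points are CTCF peaks that overlap a RAD21 peak of the same condition and open points are not; Rpl36 leads WT at 52.9 without RAD21 and stands at 54.4 with RAD21 in ΔMAZ.

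Once CTCF was degraded, RAD21 was called at 26 genes (30.2%, interval 21.5 to 40.6%), against 18.4% of all genes. With the 4 RAD21 lists cut to equal length it was at 7 (8.14%), against 3.86%. It was called at 13 of 52 large and 13 of 34 small subunit genes. RAD21 was kept at 1 of the 5 WT genes, Rpl26 (interval 3.62 to 62.4%), against 60.5% of all genes, while Rpl11, Rpl27 and Rpl7l1 were among those with none. RAD21 was gained at 25 genes, 29.1% (interval 20.5 to 39.4%), against 13.8% of all genes. The ΔCTCF library was the deepest of the RAD21 libraries. With its pileups scaled down to the depth of WT, 20 genes were gained (23.3%), against 9.49% of all genes, and at a −log10 q of at least 10 in every list 7 were (8.14%), against 1.81%. Those 7 include Rpl26, whose WT peak fell under that limit, so 6 of the 25 gained genes were left.

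The gained peaks were modest in their list. Rps27a, which encodes a fusion of ubiquitin and a small subunit protein, had a fold of 7.15 (percentile 78.3), Rpl15 had 6.67, Rps7 and the paralogue Rpl22l1 6.43 each, Rps21 5.96 and Rps19, the gene most often mutated in Diamond-Blackfan anaemia, 5.76. Rps3a1 had 5.33, Rps12 5.07, and Rps20 and Rps19bp1 5.0 each. The other 15 ranged from 2.73 at Rps13 to 4.69 at Rpl12. Over all 26 genes the median percentile was 37.0, beside 37.5 for all genes with RAD21 in this list, and 1 gene, Rpl26 (11.4, percentile 90.7), stood in the upper 20%. The peak of Rps27a lies in an intron of the neighbouring Clhc1, and that of Rpl15 at a start shared with Nkiras1.

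These RAD21 peaks were set beside those of the other proteins. In ΔCTCF 2 of 26 overlapped a residual CTCF peak (Rpl26 and Rps3a1, 7.69%, against 6.07% of all genes), and 6 of 26 overlapped a MAZ peak (23.1%, interval 11.0 to 42.1%), against 38.0% of all genes. With lists of equal length the order turned, to 3 of 7 (42.9%) against 31.2%, and for CTCF it turned to 1 of 7 (14.3%) against 23.8%. The 6 were Rpl10a, Rpl15, Rpl7a, Rps19, Rps20 and Rps21. Of the 25 gained genes 5 had carried CTCF in WT (Rpl10a, Rpl37, Rpl5, Rps20 and Rps3a1), 20% against 6.62% of all genes that gained RAD21, where CTCF in WT was itself at 25.6% of the set and 9.67% of all genes. Counted from CTCF, 5 of 17 genes with CTCF and no RAD21 in WT gained RAD21, 29.4% against 23.8%. MAZ in ΔCTCF was called at 8 of the 25 (32%, against 48.2%), and 14 (56%, against 48.3%) had neither CTCF in WT nor MAZ in ΔCTCF. Those 14, with Rps27a, Rps7 and Rpl22l1 as the strongest, had no CTCF or MAZ peak in any list.

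**Figure D4:**
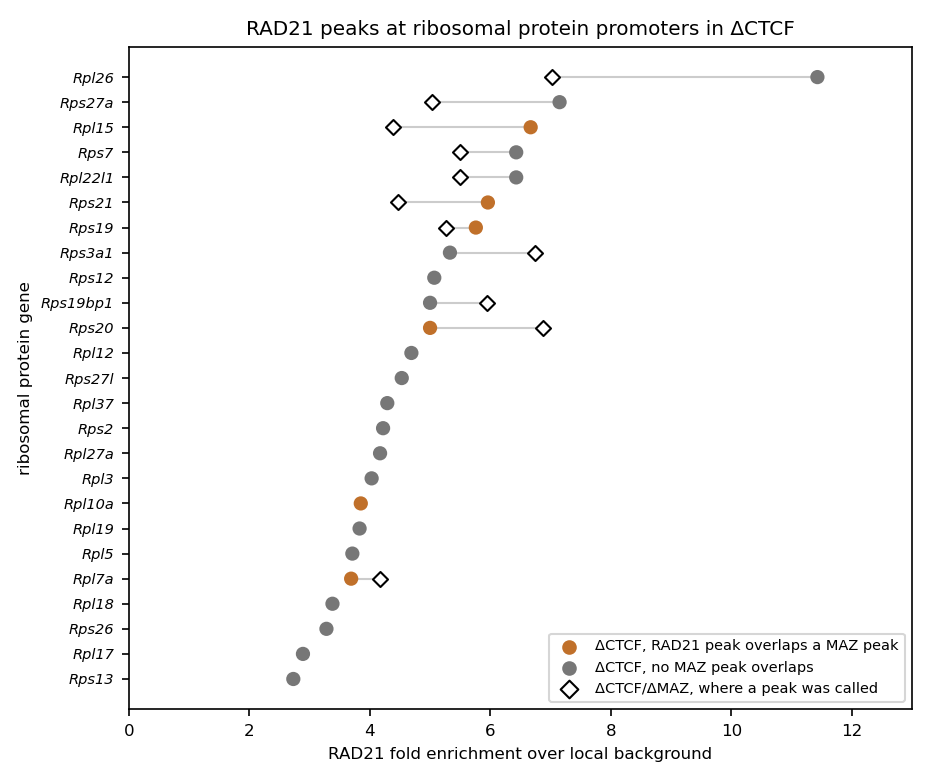
RAD21 fold enrichment (x axis) at 25 of the 26 genes bound in ΔCTCF (y axis), orange where the RAD21 peak overlaps a MAZ peak and grey where it does not. Open diamonds give the fold in ΔCTCF/ΔMAZ where a peak was called there, at 11 of those shown; folds of both libraries are not on a common scale.

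In ΔMAZ, RAD21 was called at 8 genes (9.3%, interval 4.79 to 17.3%), against 9.58% of all genes. All 5 WT genes kept it (against 81.9% of all genes), and Rpl36 with 7.44, Rpl15 with 6.95 and Rpl27a with 4.98 were gained, 3.49% against 3.41% of all genes. With lists of equal length RAD21 was at 1 gene (1.16%), against 2.28%, and at a distance of 2500 bp it was at 14 (16.3%), against 13.7%. Of the 8, 6 overlapped CTCF (75%, against 66.3%), and Rpl15 and Rpl27a did not. No small subunit gene was among them.

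In ΔCTCF/ΔMAZ, RAD21 was called at 14 genes (16.3%, interval 9.95 to 25.5%), against 6.24% of all genes. They were 6 of 52 large and 8 of 34 small subunit genes. From ΔMAZ, 3 of 8 genes kept RAD21 (37.5%, against 32.0% of all genes) and 11 gained it (12.8%, interval 7.29 to 21.5%, against 3.17%). Peaks with a −log10 q of 5 or more gave RAD21 at 6 genes (6.98%, against 3.41%) and gained at 4 (4.65%, against 1.37%). A limit of 10 left 0 genes, against 1.17% of all genes bound and 0.146% gained. Set beside ΔCTCF, 11 of 26 genes had RAD21 in both, 42.3% (interval 25.5 to 61.1%) against 25.1% of all genes, and Rpl36, Rpl7 and Rps15 had it in ΔCTCF/ΔMAZ without having it in ΔCTCF (3.49%, against 1.63%). Among peaks with a −log10 q of 5 or more, the genes with RAD21 in both were 4 of 18, 22.2% against 23.4% of all genes, so the higher share did not hold there. A limit of 3 gave 39.1% against 23.7%, and with ΔCTCF scaled to the shallower depth it was 10 of 18, 55.6% against 34.3%. A limit of 10 left 0 of 7, against 27.7%. The highest folds were 7.03 at Rpl26, 6.87 at Rps20, 6.75 at Rps3a1, 6.59 at Rpl36 and 6.56 at Rpl7. A residual CTCF peak overlapped at 2 of 14 (Rpl26 and Rpl36), against 16.3% of all genes, and at a limit of 5 it did at 2 of 6 (33.3%, against 27.0%).

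Genes with RAD21 in ΔCTCF, split by MAZ, were followed into ΔCTCF/ΔMAZ. Of the 6 genes whose RAD21 overlapped MAZ, 5 (Rpl15, Rpl7a, Rps19, Rps20 and Rps21) had RAD21 within 1 kb in ΔCTCF/ΔMAZ too and Rpl10a did not. At Rpl7a the ΔCTCF/ΔMAZ peak (chr2:26910162-26910371) did not overlap that of ΔCTCF (chr2:26910471-26910840) and lay in an exon of Med22, so 10 of the 11 genes with RAD21 in both had overlapping peaks. Of the 20 without MAZ, 6 had it (Rpl22l1, Rpl26, Rps19bp1, Rps27a, Rps3a1 and Rps7). Among all genes the share was 25.1% with MAZ and 25.1% without. The difference did not hold among RAD21 peaks with a −log10 q of 5 or more, a split chosen after seeing the data. There RAD21 was left in both conditions at 1 of 6 genes with MAZ, Rps20, and at 3 of 12 without (Rpl26, Rps19bp1 and Rps3a1), against 18.2% and 26.4% of all genes. Scaled depth left 4 of 5 with MAZ and 6 of 13 without, against 33.5% and 34.7%. Equal lengths left 3 of 3 and 4 of 4, against 57.3% and 61.1%, and a limit of 10 left 0 of 3 and 0 of 4, against 17.1% and 32.4%. At 9 genes RAD21 was called in both auxin conditions and in neither untreated one (Rpl22l1, Rpl7a, Rps19, Rps19bp1, Rps20, Rps21, Rps27a, Rps3a1 and Rps7), 10.5% against 1.68% of all genes. Of these 9, 3 were left at a −log10 q limit of 5 (Rps19bp1, Rps20 and Rps3a1, 3.49% against 0.642%) and 0 at a limit of 10 (against 0.0638%), while scaled depth left 8 (9.3%, against 1.16%). The ΔCTCF/ΔMAZ list is shorter than that of ΔCTCF, and with both cut to its length by fold enrichment the order of the counts turned: 7 genes in ΔCTCF, all 7 of them also bound in ΔCTCF/ΔMAZ, beside 14. It turned for all genes too, with 847 in ΔCTCF, 59.9% of them also bound in ΔCTCF/ΔMAZ, beside 1370.

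Of the set, Rpl26 alone had RAD21 in all 4 conditions (1.16%, against 2.18% of all genes), and Rpl26 and Rpl36 alone had CTCF in all 4 (2.33%, against 0.943%). RAD21 at Rpl26 had a fold of 5.90 in WT (percentile 17.2) and of 11.2 in ΔMAZ (percentile 57.2). After auxin it had 11.4 (percentile 90.7), and 7.03 (percentile 56.9) where Maz was also lost. Its CTCF peak had folds of 48.6 in WT and 57.5 in ΔMAZ, and after auxin 14.8 with Maz and 11.3 without it. The RAD21 peak stood lowest within its list in WT, and the CTCF fold was lower in both auxin libraries than in both untreated ones.

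The median RAD21 summit lay further upstream than that of all genes in each of the 4 lists. It was at -168 bp in WT, beside -102 bp, and at -123 bp in ΔMAZ, beside -79 bp, with all 5 and all 8 summits upstream (against 72.4% and 68.3% of all genes). In ΔCTCF the median was -137 bp, beside -53 bp for all genes, with 21 of 26 upstream (80.8%, against 63.7%), and in ΔCTCF/ΔMAZ it was -138 bp, beside -56 bp, with all 14 upstream (against 65.9%). MAZ summits were nearer to the start, at a median of -62 bp in WT and -44.5 bp in ΔCTCF, beside -43 and -39 bp for all genes.

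**Figure D5:**
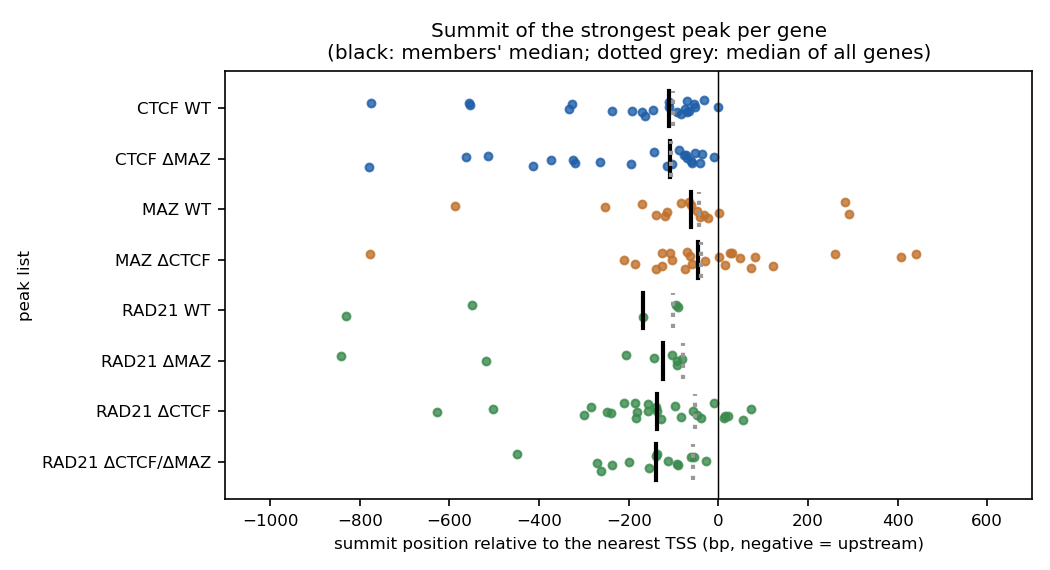
Position of the strongest summit of each bound gene relative to its nearest TSS (x axis, bp, negative is upstream) in 8 lists (y axis), with vertical scatter added for legibility. Black bars are the medians of the ribosomal protein genes and dotted grey bars those of all genes; the RAD21 medians of ΔCTCF and ΔCTCF/ΔMAZ lie at -137 and -138.

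The 4 paralogues with any peak were Rpl7l1 (CTCF and RAD21 in WT and ΔMAZ), Rpl36al (MAZ in WT and ΔCTCF), Rpl22l1 (RAD21 in both auxin conditions) and Rps27l (RAD21 in ΔCTCF). In at least 1 list, 24 genes had CTCF (27.9%, against 10.7% of all genes), 26 had MAZ (30.2%, against 27.2%) and 33 had RAD21 (38.4%, against 24.3%). CTCF alone was called at 8 (9.3%, against 1.78%), MAZ alone at 12 (14%, against 14.2%) and RAD21 alone at 14 (16.3%, against 7.42%). All 3 proteins were called in some list at 5 (Rpl10a, Rpl11, Rpl5, Rps19 and Rps20), 5.81% against 3.07%. No peak of any antibody was called at 30 genes (34.9%, against 58.8% of all genes), 22 of the large and 8 of the small subunit, among them Rpl4, Rpl6, Rpl8, Rplp1, Rplp2, Rps3, Rps6, the target of S6 kinase, and Rps9.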

How the data were processed

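ChIP-seq for CTCF , MAZ and RAD21 was analysed from 12 peak lists, 1 per antibody and condition. The authors mapped reads to mm10 with Bowtie 2, filtered quality and duplicates with SAMtools and called narrow peaks in each library with MACS; the methods name a MACS 1 release with MACS 2 defaults, and an input control is not stated. Drosophila spike-in chromatin was added but did not enter the lists. Fold enrichment, as deposited, is the ratio between summit pileup and local background, each with a pseudocount of 1. Values of −log10 p and −log10 q were also deposited and rate a peak within its own library. The score that the authors deposited is derived from the −log10 q and was not used. Depth is unknown from the files as read totals, and relative depth was taken from the lowest local background divided by the smallest peak width of the list. Backgrounds were solved together with whole pileups for all 136043 peaks within a tolerance of 0.001.

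Groups came from the sample titles. The genes and the comparison lists were chosen with earlier results of these data known. Genes and TSSs came from GENCODE vM21 basic. A gene was bound where a peak edge lay within 1000 bp of a TSS, and peaks overlapped where they shared at least 1 bp. The calls were checked against bedtools 2.31.1, with 0 of the genes differing in 12 lists. The functions were tested on simulated data. Genes were named by a rule: up to 12 genes by fold for CTCF, up to 10 for MAZ and RAD21 in WT and ΔCTCF, up to 5 gained or lost per RAD21 comparison, and every paralogue with a peak; genes outside it were named after their values were seen. The values of some genes are not reported here, and those genes are not drawn by name in the figures. No test was run, since each group has 1 list. Analyses used Python 3.11.15, pandas 2.3.3, scipy 1.17.1 and matplotlib 3.10.9. Alternatives were distances of 500 and 2500 bp, distance from the summit, a −log10 q of at least 5, lists of equal length, scaled depth, genes without a neighbouring TSS, canonical genes and a reciprocal overlap of 50%.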

Additional observations from a re-analysis of the deposited data

How the results depend on the processing

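Of 298 values computed for 36 shares under the alternatives, 279 stayed within the 95% Wilson interval of the reported share. Several of these intervals are wide because the shares rest on few genes, so staying within one is a weak check. A distance of 2500 bp gave RAD21 in WT at 14% of the ribosomal protein genes, against 11.7% of all genes (given below in parentheses). A −log10 q of at least 5 gave RAD21 at 20.9% (against 10.8%) in ΔCTCF and 6.98% (3.41%) in ΔCTCF/ΔMAZ, RAD21 gained from WT to ΔCTCF at 19.8% (7.46%) and from ΔMAZ to ΔCTCF/ΔMAZ at 4.65% (1.37%), and 22.2% (23.4%) of ΔCTCF genes keeping RAD21 in ΔCTCF/ΔMAZ. Limits of 3 and 10 were chosen after seeing the data, and that of 10 gave RAD21 gained from WT to ΔCTCF at 8.14% (1.81%). The same limit left RAD21 in ΔCTCF/ΔMAZ at 0 of these genes (against 1.17%). Depth scaled to the shallowest library gave RAD21 in ΔCTCF at 20.9% (11.0%). Lists cut to equal length moved the most shares: CTCF was called at 6.98% (1.94%) in WT and 6.98% (1.98%) in ΔMAZ, RAD21 at 1.16% (1.93%) in WT, 1.16% (2.28%) in ΔMAZ and 8.14% (3.86%) in ΔCTCF. The share keeping CTCF was then 66.7% (4 of 6, against 43.3%) from WT to ΔCTCF and 50.0% (3 of 6, against 48.3%) from ΔMAZ to ΔCTCF/ΔMAZ, that keeping RAD21 was 0.0% (0 of 1, against 60.7%) from ΔMAZ and 100.0% (7 of 7, against 59.9%) from ΔCTCF to ΔCTCF/ΔMAZ, RAD21 overlapped CTCF in ΔMAZ at 100.0% (1 of 1, against 39.3%) and MAZ in ΔCTCF at 42.9% (3 of 7, against 31.2%). These lists hold fewer peaks by construction, and otherwise the cause was not tested.

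No paired analysis was possible because the lists used are 1 per antibody and condition and no test was made. Equal lengths and scaled depth were not run for the MAZ lists of knockout cells, and promoter strings at other start sites were not run because the string share was void. Peaks under the q limit are absent from the lists, so weaker binding at a gene without a call cannot be seen in these files.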

Other observations

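Other housekeeping gene lists gave the counts beside which the ribosomal protein genes can be read. In ΔCTCF, RAD21 was called at 30 of 78 mitochondrial ribosomal protein genes (38.5%, interval 28.4 to 49.6%), at 14 of 40 proteasome subunit genes (35%, interval 22.1 to 50.5%) and at 7 of 23 other ribosome and TOP genes such as Eef2 and Npm1 (30.4%, interval 15.6 to 50.9%), against 30.2% of the cytosolic ribosomal protein genes. In ΔCTCF/ΔMAZ the shares were 14.1%, 12.5% and 4.35%, against 16.3%.

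CTCF in WT was called at 11 of the mitochondrial ribosomal protein genes (14.1%), 8 of the 40 proteasome genes and 2 of the other ribosome and TOP genes (8.7%), against 25.6% of the cytosolic ribosomal protein genes. MAZ in WT was called at 15 (19.2%), 3 (7.5%) and 10 (43.5%), against 19.8%. For CTCF the interval of the cytosolic list runs from 17.5 to 35.7%, that of the proteasome list from 10.5 to 34.8% and that of the mitochondrial list from 8.06 to 23.5%. The differences were not tested.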
